A study of Homo sapiens with 36 samples.

Results

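The genes described here encode the ephrin ligands, the Eph receptors, the semaphorins and the plexin and neuropilin receptors. They were taken by symbol pattern from the 26475 genes of an RNA-sequencing count table, which gave 53 members. Of these, 8 were ephrins (EFN), 14 Eph receptors (EPH), 20 semaphorins (SEMA) and 11 plexins or neuropilins (PLXN and NRP). The study sequenced poly-A RNA of 36 libraries from 3 human cancer cell lines grown in the same serum-containing medium. The lines were MDA-MB-468, from a basal-like breast carcinoma, PANC-1, from a carcinoma of the pancreas, and WiDr, from a colorectal adenocarcinoma. In each line, cells carrying targeting hairpin 1 or targeting hairpin 2 in the lentiviral vector pGIPZ were compared with cells carrying a non-silencing hairpin in that vector. In WiDr, cells carrying targeting guide RNA 1 or 2 were also compared with cells carrying a non-targeting guide RNA. Every arm had 3 libraries, which the design text calls biological replicates, and so each experiment had 9 libraries. Whether the cells of an arm were a pool or a single clone is not given in the sources used here. Titles set the guide arms, although in 4 of the 6 targeting guide libraries the genotype field gives the other guide, which would make 5 libraries guide 1 and 1 library guide 2. The PANC-1 arm of hairpin 2 is called the libraries labelled hairpin 2, because whether that label holds was not settled.

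Ephrins and Eph receptors sit on the surface of neighbouring cells and signal in both directions, so that contact makes a cell retract, stay or sort away. Semaphorins are secreted or membrane-bound cues that act through plexins, and most secreted ones also need a neuropilin as co-receptor. These families are known for axon guidance, and in epithelia and carcinomas for cell sorting, adhesion, migration and vessel growth.

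Library totals were 28371127 to 49237322 counts. CPM are read counts scaled to library size. For the guidance genes and their partners the TMM method was used, and for cell type markers the library total alone. All 7 basal breast markers stood at 1 CPM or more in every MDA-MB-468 library. In the WiDr hairpin controls 5 of 7 intestinal markers did, and CDH17 was under 1 CPM in every library. Of the pancreatic duct markers, KRT7 (5.32 to 9.25 CPM), KRT19, SOX9 and MUC1 were at 1 CPM or more in every PANC-1 library and CFTR was under 1 CPM in all of them. These 5 stood on the same sides of 1 CPM in every MDA-MB-468 library, so they do not set PANC-1 apart. The neuronal markers RBFOX3, SNAP25 and STMN2 and the leukocyte markers PTPRC and CD3E were under 1 CPM in every library of every arm. Reads of a gene and an overlapping partner cannot be told apart without a known strand setting. That limits EPHA1, EPHA5, EPHB1, EPHB2, EPHB4, PLXNA3, PLXNC1, SEMA4G and SEMA6A, whose exons overlap another gene on the opposite strand, and PLXNB3 and SEMA3B, which overlap one on the same strand.

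In PANC-1 more members were higher than lower with each hairpin arm. With hairpin 1, 20 members were higher and 2 lower of 46 tested, beside 16.2% of all genes higher and 14.0% lower (30.2% in either direction). In the libraries labelled hairpin 2, 17 were higher and 4 lower of 46 tested, beside 16.7% of all genes higher and 16.7% lower (33.4% in either direction). The median log2 fold change of the tested members was 0.50 with hairpin 1, where the median of all genes was -0.02. It was 0.37 in the libraries labelled hairpin 2, where that of all genes was 0.00. Both comparisons share the same 3 control libraries. Between the 2 hairpin arms no member passed in the edgeR test, beside 0.106% of all genes (0.0264% higher and 0.0793% lower). There 9 members had an unadjusted p under 0.05, and DESeq2 called 1, beside 1.25% of all genes. The rise was seen in ligands of both systems and in Eph receptors, while NRP2 was the only plexin or neuropilin that passed with either arm. In bulk RNA, fewer cells expressing a gene and less RNA per cell cannot be told apart. By family, hairpin 1 gave 4 ephrins higher and 1 lower of 8, 5 Eph receptors higher of 10, 10 semaphorins higher and 1 lower of 18, and 1 plexin or neuropilin higher of 10. The libraries labelled hairpin 2 gave 3 ephrins higher and 1 lower, 4 Eph receptors higher and 2 lower, 9 semaphorins higher and 1 lower, and 1 plexin or neuropilin higher.

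**Figure D1:**
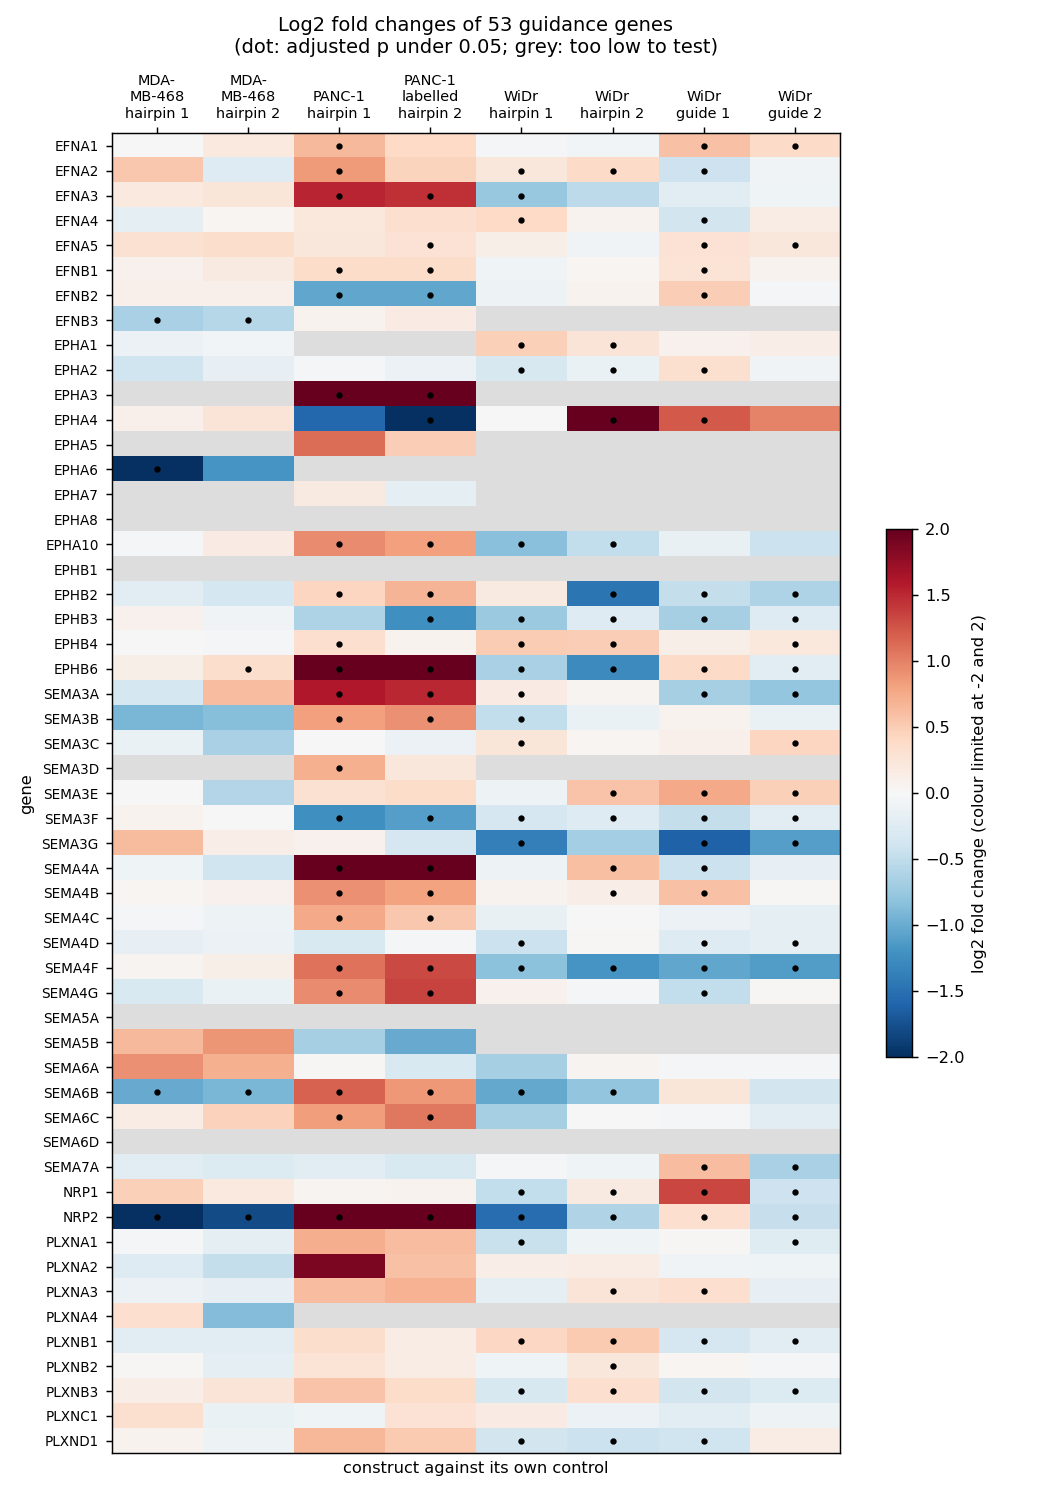
Log2 fold change of each of the 53 guidance genes (rows) for each of 8 constructs against its own control (columns), fitted over 9 libraries an experiment; red is higher and blue lower than the control. Dots mark members that passed, 22 and 21 in the PANC-1 columns and 4 in each MDA-MB-468 column, and NRP2 is red in PANC-1 and blue in MDA-MB-468 and the WiDr hairpins.

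Upstream sequences are shown for 4 members that changed with both PANC-1 arms, as NRP2 and EFNA3 rose and SEMA3F and EFNB2 fell. Each is the 250 bases before the RefSeq gene start in GRCh38.p14, 5′ to 3′ on the strand of the gene. NRP2 lies at chr2:205682251-205682500 on the plus strand, SEMA3F at chr3:50154808-50155057 on the plus strand, EFNA3 at chr1:155078587-155078836 on the plus strand and EFNB2 at chr13:106535663-106535912 on the minus strand. Capitals mark the GC box GGGCGG (the motif of the Sp family) and TATAAA, each read on both strands.
NRP2: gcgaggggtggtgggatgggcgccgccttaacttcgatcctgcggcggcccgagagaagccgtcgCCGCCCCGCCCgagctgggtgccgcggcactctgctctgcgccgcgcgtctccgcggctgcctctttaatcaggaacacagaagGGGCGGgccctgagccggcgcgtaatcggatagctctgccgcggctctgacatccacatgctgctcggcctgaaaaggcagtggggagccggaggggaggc
EFNA3: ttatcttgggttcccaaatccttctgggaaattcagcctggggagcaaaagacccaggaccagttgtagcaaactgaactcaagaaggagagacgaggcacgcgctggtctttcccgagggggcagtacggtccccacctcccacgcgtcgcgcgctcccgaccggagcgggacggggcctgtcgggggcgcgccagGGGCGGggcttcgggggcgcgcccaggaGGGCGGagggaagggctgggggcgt
SEMA3F: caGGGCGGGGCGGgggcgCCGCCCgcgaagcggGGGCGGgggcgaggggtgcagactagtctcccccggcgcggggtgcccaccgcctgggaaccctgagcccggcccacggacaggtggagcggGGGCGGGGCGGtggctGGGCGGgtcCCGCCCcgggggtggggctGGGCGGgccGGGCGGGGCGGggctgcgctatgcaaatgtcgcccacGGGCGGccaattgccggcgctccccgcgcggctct
EFNB2: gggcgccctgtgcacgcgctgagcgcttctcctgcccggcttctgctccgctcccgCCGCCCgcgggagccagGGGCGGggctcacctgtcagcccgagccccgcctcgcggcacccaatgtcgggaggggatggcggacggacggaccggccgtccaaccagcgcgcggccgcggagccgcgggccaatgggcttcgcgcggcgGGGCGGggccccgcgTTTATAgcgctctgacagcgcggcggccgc
The windows hold 3 GC boxes in NRP2, 2 in EFNA3, 12 in SEMA3F, several of them overlapping, and 3 in EFNB2, which also has the only TATA box among the 47 members searched. Both risers and both fallers therefore carry GC boxes. A GC box was present in 37 of the 47 members with a promoter in the table, against 42.3% of 27305 promoters of that length, and the median GC content was 66.4% in members and 58.0% in all promoters. The hypoxia factor core ACGTG was in 6 members, against 18.7% of all promoters, and the E-box CACGTG, which contains it, in 4, against 6.49%. TATAAA was in 11.1% of all promoters. A match is a string of letters and not a measured site.

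Among the PANC-1 ephrins, EFNA3, a GPI-anchored ligand of EphA receptors, had 11, 8.82 and 9.93 CPM with hairpin 1 and 9.95, 10.7 and 7.90 CPM in the libraries labelled hairpin 2, against 2.77, 4.04 and 3.57 CPM in controls. Every library of both hairpin arms stood above every control. The log2 fold change was 1.52 (SE 0.17, adjusted p = 0.000229) and 1.46 (SE 0.17, adjusted p = 0.000274). EFNB2, the transmembrane ligand of EPHB4, had 7.86, 9.99 and 12.3 CPM with hairpin 1 and 9.19, 10.3 and 10.8 CPM in the libraries labelled hairpin 2, against 25.0, 18.3 and 18.8 CPM in controls. It fell by 1.05 (SE 0.18, adjusted p = 0.00237) and by 1.04 (SE 0.18, adjusted p = 0.00237) on the log2 scale, without overlap of the groups. EFNB2 was the only ephrin that fell in this line. EFNA1 rose with hairpin 1 by 0.65 (adjusted p = 0.0139), and its log2 fold change in the libraries labelled hairpin 2 was 0.40 (adjusted p = 0.0802). EFNA2 likewise rose with hairpin 1 by 0.85 (adjusted p = 0.00553) and had 0.45 (adjusted p = 0.0733) with the other arm. EFNB1 had small rises of 0.37 and 0.36, calls lost without control replicate 2 or replicate 2 of the same arm and with the replicate block, among others (adjusted p = 0.0507 to 0.0754 and 0.0638 to 0.0963). EFNA5 rose by 0.28 in the libraries labelled hairpin 2, a call lost under 11 alternatives (adjusted p = 0.0631 to 0.135), among them control replicate 1 left out (log2 fold change 0.19, adjusted p = 0.105). EFNA4 and EFNB3 did not pass with either arm.

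Among the PANC-1 Eph receptors, EPHB6, which lacks kinase activity, had 1.2, 1.36 and 1.42 CPM with hairpin 1 and 2.33, 2.02 and 1.87 CPM in the libraries labelled hairpin 2, against 0.257, 0.359 and 0.236 CPM in controls. The log2 fold change was 2.22 (SE 0.22, adjusted p = 0.000117) and 2.86 (SE 0.22, adjusted p = 2.39e-05). EPHB6 stayed below the levels of both other lines. EPHB3, a receptor known for cell positioning in intestinal crypts, had 1.61, 2.32 and 2.17 CPM with hairpin 1 and 1.55, 1.44 and 0.977 CPM in the libraries labelled hairpin 2, against 3.82, 2.72 and 2.78 CPM in controls. It fell by 1.23 (SE 0.23, adjusted p = 0.0038) in the libraries labelled hairpin 2, while the value with hairpin 1 was -0.61 (SE 0.22, adjusted p = 0.0652). EPHB2, a close relative of EPHB3 with the same known crypt role, moved the other way. It had 54.3 to 62.5 CPM with hairpin 1 and 66.3 to 71.3 CPM in the libraries labelled hairpin 2, against 39.4 to 47.1 CPM in controls, log2 fold changes of 0.43 (adjusted p = 0.00806) and 0.68 (adjusted p = 0.000688). EPHA10, another kinase-inactive receptor, rose by 0.94 (adjusted p = 0.0141) and 0.82 (adjusted p = 0.0237). Its call with hairpin 1 was lost without hairpin 1 replicate 2 (adjusted p = 0.0531), and that of the other arm without control replicates 2 or 3 or replicates 1 or 2 of the arm (adjusted p = 0.0608 to 0.0934). EPHB4 rose by 0.33 with hairpin 1 (adjusted p = 0.0301) and had 0.08 in the other arm. That call was lost under 10 alternatives, among them any one hairpin 1 library left out and the replicate block (adjusted p = 0.05 to 0.109). EPHA2, the most abundant Eph receptor per length in this line, had -0.02 and -0.11 and did not pass. EPHA3 passed with both arms and EPHA4 with the libraries labelled hairpin 2, but EPHA3 was under 1 CPM in every library and EPHA4 in all but 1 control library. In the libraries labelled hairpin 2 the EPHA3 call was lost without replicate 1 or 2 of that arm, without control replicate 2 or 3 and with the replicate block (adjusted p = 0.0507 to 0.0829). The EPHA4 call was lost without replicate 2 or 3 of that arm and with the replicate block (adjusted p = 0.0555 to 0.0649).

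Among the PANC-1 semaphorins, the secreted repellent SEMA3A had 37.1, 47.9 and 50.4 CPM with hairpin 1 and 40.0, 41.2 and 45.1 CPM in the libraries labelled hairpin 2, against 16.6, 14.2 and 13.8 CPM in controls. It rose by 1.60 (SE 0.13, adjusted p = 3.89e-05) and 1.5 (SE 0.13, adjusted p = 5.12e-05) on the log2 scale. SEMA3F, the secreted ligand that binds NRP2, had 44.9, 50.6 and 49.2 CPM with hairpin 1 and 55.6, 54.8 and 48.8 CPM in the libraries labelled hairpin 2, against 125, 103 and 112 CPM in controls. It fell by 1.23 (SE 0.10, adjusted p = 3.69e-05) and by 1.09 (SE 0.10, adjusted p = 6.43e-05), so this ligand fell in the same libraries in which its co-receptor rose. The transmembrane SEMA4F had 24.4, 25.1 and 25.1 CPM with hairpin 1 and 29.3, 27.8 and 30.5 CPM in the libraries labelled hairpin 2, against 12.1, 11.8 and 11.3 CPM in controls. Its log2 fold change was 1.09 (SE 0.077, adjusted p = 1.78e-05) and 1.32 (SE 0.078, adjusted p = 6.46e-06). The transmembrane SEMA4G had 8.29, 12.7 and 12.2 CPM with hairpin 1 and 14.5, 15.2 and 14.2 CPM in the libraries labelled hairpin 2, against 6.75, 4.46 and 5.94 CPM in controls, and rose by 0.95 (adjusted p = 0.00529) and 1.35 (adjusted p = 0.000783). Every library of the hairpin arms stood above every control for SEMA3A, SEMA4F and SEMA4G and below every control for SEMA3F, genes named for their change in these same libraries. SEMA4B, the most abundant semaphorin per length in this line, averaged 1403 ± 124 CPM with hairpin 1 and 1308 ± 90.2 CPM in the libraries labelled hairpin 2, against 748 ± 96.1 CPM in controls (SD, n = 3 each), and rose by 0.91 and 0.81. SEMA4C, a ligand of PLXNB2, rose by 0.75 and 0.53. The class 6 transmembrane semaphorins SEMA6B and SEMA6C rose by 1.19 and 0.87 and by 0.84 and 1.05. SEMA3B rose by 0.82 and 0.92, but its hairpin 1 call was lost without control replicate 2 (adjusted p = 0.0688), without hairpin 1 replicate 2 (adjusted p = 0.0723) and with the replicate block (log2 fold change 0.83, adjusted p = 0.0607). SEMA3D rose by 0.71 with hairpin 1 (adjusted p = 0.0326). That call was lost with the replicate block (log2 fold change 0.73, adjusted p = 0.0872) and when control replicate 2 or 3, hairpin 1 replicate 2 or 3, or any library labelled hairpin 2 was left out (adjusted p = 0.0506 to 0.108). It was also lost in the fit of all 36 libraries (adjusted p = 0.0668). SEMA4A passed with both arms at under 1 CPM, and its hairpin 1 call was lost under 12 alternatives, among them any one of the 9 libraries left out and DESeq2 (adjusted p = 0.051 to 0.103). The other SEMA4A call was lost without replicate 2 or 3 of its arm (adjusted p = 0.0564 and 0.0651). SEMA3C, SEMA3E, SEMA3G, SEMA4D, SEMA5B, SEMA6A and SEMA7A did not pass with either arm.

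The neuropilin NRP2, co-receptor of SEMA3F and of lymphatic growth factors, had 2.83, 5.85 and 5.02 CPM with hairpin 1 and 6.14, 6.59 and 5.43 CPM in the libraries labelled hairpin 2, against 0.385, 0.269 and 0.354 CPM in PANC-1 controls. This was 13.4-fold (log2 fold change 3.74, SE 0.31, adjusted p = 3.94e-05) and 17.7-fold (4.15, SE 0.31, adjusted p = 2.11e-05) higher. NRP1, the co-receptor of SEMA3A and of vascular endothelial growth factor, had 142, 178 and 178 CPM with hairpin 1 and 169, 163 and 175 CPM in the libraries labelled hairpin 2, against 190, 145 and 146 CPM in controls. Its groups overlapped and it did not pass, with log2 fold changes of 0.05 and 0.07.

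**Figure D2:**
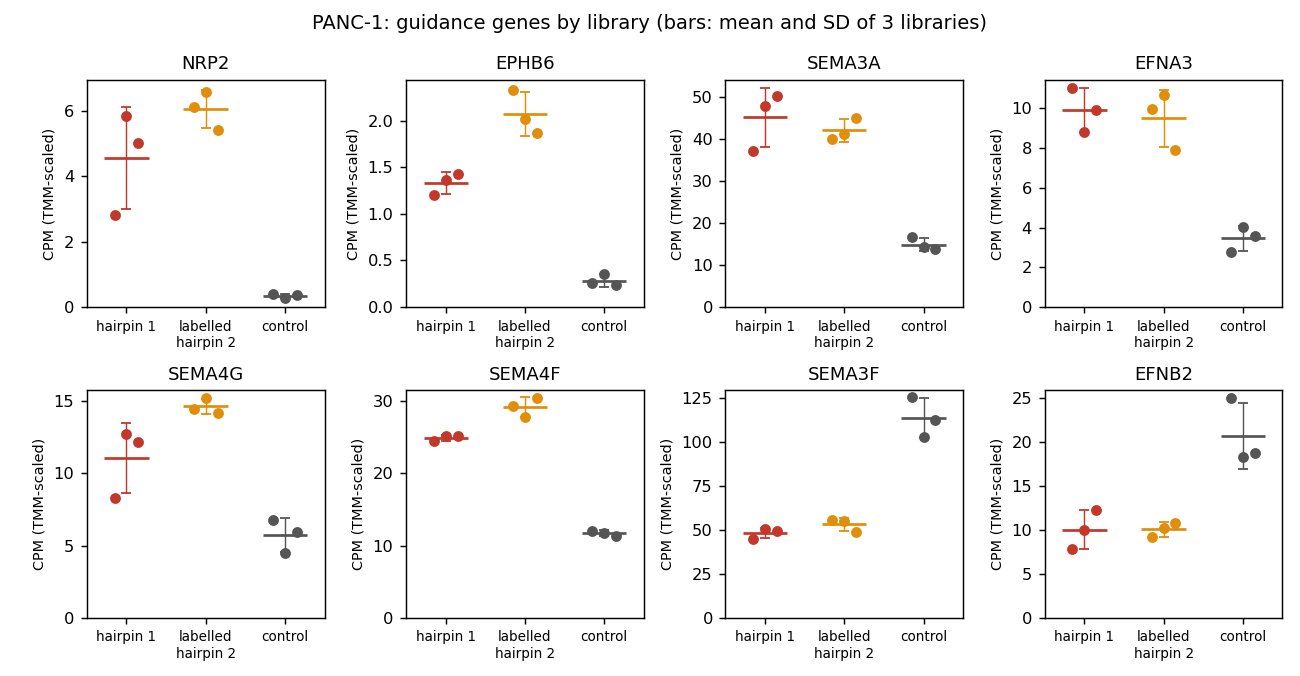
CPM of 8 guidance genes in the PANC-1 libraries, with hairpin 1 and the libraries labelled hairpin 2 left of the control; points are libraries, lines are means and whiskers the SD of 3 libraries, on linear axes from 0. The hairpin libraries lie above the controls for NRP2, EPHB6, SEMA3A, EFNA3, SEMA4G and SEMA4F and below them for SEMA3F and EFNB2.

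The plexins, the signalling receptors of the semaphorins, varied with control replicate 1. PLXNA1 had 186, 276 and 261 CPM with hairpin 1 and 243, 224 and 205 CPM in the libraries labelled hairpin 2, against 211, 108 and 120 CPM in PANC-1 controls. PLXND1, the receptor of SEMA3E, had 283, 412 and 399 CPM with hairpin 1 and 361, 334 and 308 CPM in the libraries labelled hairpin 2, against 318, 179 and 197 CPM in controls. In both genes control replicate 1 lay within the hairpin libraries and hairpin 1 replicate 1 was the lowest of its arm. With all libraries PLXNA1 had log2 fold changes of 0.72 (adjusted p = 0.0529) and 0.61 (adjusted p = 0.0827), and PLXND1 of 0.66 (adjusted p = 0.0502) and 0.53 (adjusted p = 0.0928). Without control replicate 1, PLXNA1 had 1.06 (adjusted p = 0.000416) and 0.95 (adjusted p = 0.000599), and PLXND1 had 0.94 (adjusted p = 0.000744) and 0.81 (adjusted p = 0.00129). PLXNA3, PLXNB1, PLXNB2 and PLXNB3 then also passed with both arms, and the members called numbered 30 with hairpin 1, while the other arm had 27. The share of all genes called was then 44.3% and 51.9%, so the members' counts grew together with the background. PLXNB2, a receptor of class 4 semaphorins, had 0.27 and 0.14 with all libraries and 0.51 and 0.37 without that control. PLXNC1, the receptor of SEMA7A, did not pass either way. PLXNA2 and PLXNA4, which passed only with hairpin 1 and only without that control, were under 1 CPM in every control library of PANC-1.

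**Figure D3:**
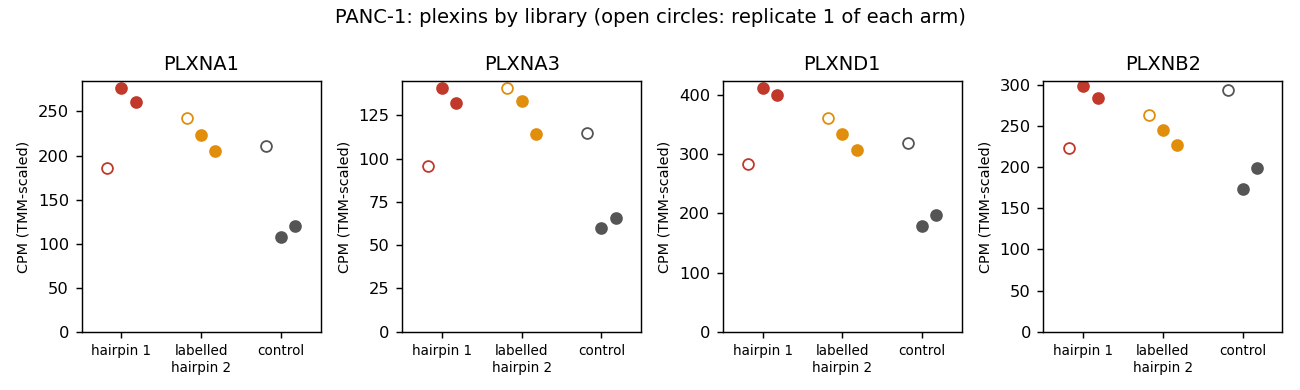
CPM of PLXNA1, PLXNA3, PLXND1 and PLXNB2 in the 9 PANC-1 libraries on linear axes from 0, with open circles for replicate 1 of each arm. Control replicate 1 of PLXNA1 (211 CPM) lies well above the other controls (108 and 120 CPM).

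Other measures moved with the PANC-1 arms. Ribosomal RNA made up 0.838% to 2.6% of counts with hairpin 1 and 1.22% to 1.80% in the libraries labelled hairpin 2, against 4.61% to 9.60% in controls. With the ribosomal RNA genes left out, the members called were 22 and 20, beside 22 and 21 with those genes kept. The summed level of the 6 neuronal markers was 353 to 402 CPM with hairpin 1 and 298 to 338 CPM in the libraries labelled hairpin 2, against 186 to 196 CPM in controls, with the 3 defining markers named above under 1 CPM. Most of that sum was TUBB3, at 313 to 375 CPM with hairpin 1 and 262 to 311 CPM in the libraries labelled hairpin 2, against 138 to 169 CPM in controls, and SYT1 and MAP2 were also at 1 CPM or more in every PANC-1 library. The leukocyte marker CD68 had 136 to 145 CPM with hairpin 1 and 171 to 182 CPM in the libraries labelled hairpin 2, against 75.3 to 83.4 CPM in controls, and CD14 had 2.02 to 2.78, 3.42 to 4.19 and 1.38 to 2.02 CPM in these arms. The fibroblast marker COL1A1 had 38.1 to 43.6 CPM with hairpin 1 and 14.8 to 18.4 CPM in the libraries labelled hairpin 2, against 8.77 to 19.5 CPM in controls, with COL1A2, DCN, LUM and PDGFRA under 1 CPM in all of them. The part of these markers in the guidance results was not tested.

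In MDA-MB-468 few members changed. With hairpin 1, none was higher and 4 were lower of 45 tested, beside 1.24% of all genes higher and 1.03% lower (2.27% in either direction). With hairpin 2, 1 was higher and 3 lower, beside 1.69% and 1.80% (3.49%). With 1 library left out the members called ranged over 1 to 4 with hairpin 1 and 1 to 6 with hairpin 2. DESeq2 called 7 and 8, beside 4.21% and 6.42% of all genes. The hairpin 1 count was 1 without control replicate 3 or hairpin 1 replicate 2 or 3, and 2 without hairpin 1 replicate 1. The share of all genes was then 0.573% to 0.776%. The median log2 fold change of the members was -0.01 with hairpin 1 (all genes -0.01) and -0.09 with hairpin 2 (all genes 0.00). Between the hairpins no member passed in edgeR, beside 0.437% of all genes (0.191% higher and 0.246% lower). There 9 members had an unadjusted p under 0.05, and DESeq2 called 1, beside 2.06% of all genes.

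NRP2 had 0.994, 0.823 and 0.607 CPM with hairpin 1 and 0.786, 1.43 and 0.689 CPM with hairpin 2, against 2.71, 3.91 and 3.38 CPM in MDA-MB-468 controls. All 6 hairpin libraries lay below all 3 controls, the opposite direction to PANC-1. NRP2 fell by 2.04 (SE 0.30, adjusted p = 0.0116) and by 1.79 (SE 0.30, adjusted p = 0.0149) on the log2 scale. The hairpin 1 call was lost without control replicate 3 or hairpin 1 replicates 2 or 3 (adjusted p = 0.0554 to 0.0724), and the hairpin 2 call without control replicate 3 or hairpin 2 replicates 1 or 3 (adjusted p = 0.0559 to 0.0899), with log2 fold changes of -2.05 to -1.59 over these fits. SEMA6B, a transmembrane ligand of class A plexins, had 13.5, 11.1 and 10.7 CPM with hairpin 1 and 13.6, 12.3 and 11.7 CPM with hairpin 2, against 27.3, 22.1 and 21.6 CPM in controls. SEMA6B fell by 1.01 (SE 0.13, adjusted p = 0.00619) and by 0.92 (SE 0.13, adjusted p = 0.00649), and kept its call in every fit with a library left out. EFNB3, a transmembrane ligand of EphB receptors, had 5.79, 5.59 and 5.92 CPM with hairpin 1 and 5.41, 6.22 and 6.69 CPM with hairpin 2, against 8.99, 8.95 and 9.13 CPM in controls. EFNB3 fell by 0.65 (SE 0.10, adjusted p = 0.0141) and by 0.56 (SE 0.10, adjusted p = 0.0201). Its hairpin 1 call was lost without control replicate 3 or any one hairpin 1 library (adjusted p = 0.068 to 0.087). Its hairpin 2 call was lost without control replicate 2 or 3 or hairpin 2 replicate 1 or 2 (adjusted p = 0.0536 to 0.102), and in the fit of hairpin 2 and its control alone (adjusted p = 0.11). The other calls, named after their values were seen, were EPHA6, which fell by 2.49 with hairpin 1 but was under 1 CPM throughout, and EPHB6, which rose by 0.36 with hairpin 2 (adjusted p = 0.032). The EPHA6 call was lost without any one hairpin 1 library or control replicate 3 and with the replicate block (adjusted p = 0.0531 to 0.102). The EPHB6 call was lost under 11 alternatives, among them any one control or hairpin 2 library left out, no filter and the replicate block (adjusted p = 0.0502 to 0.144).

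Most other members of MDA-MB-468 differed by less than the test could call. The groups of EPHB4, SEMA3F, PLXNB2 and PLXNA1 overlapped with every arm. PLXNA1 had 133, 111 and 108 CPM with hairpin 1 and 104, 129 and 85.8 CPM with hairpin 2, against 91.2, 154 and 119 CPM in controls. Control replicate 1 was the lowest of the 3 controls for PLXNA1 and also for NRP1, which had 35.4, 35.1 and 33.4 CPM with hairpin 1 and 30.4, 31.9 and 23.3 CPM with hairpin 2, against 16.6, 30.5 and 28 CPM in controls. The 7 basal breast markers summed to 4700 to 5330 CPM with hairpin 1 and 4740 to 5740 CPM with hairpin 2, against 3650 to 4570 CPM in controls, and their part in these results was not tested.

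In WiDr with hairpins, 7 members were higher and 16 lower of 41 tested with hairpin 1, beside 24.1% of all genes higher and 23.9% lower (48.0% in either direction). With hairpin 2, 12 were higher and 10 lower, beside 22.2% and 22.5% (44.7%). The median log2 fold change was -0.10 with hairpin 1 (all genes 0.00) and 0.01 with hairpin 2 (all genes -0.01). The 2 hairpins differed from each other in 19 members, 14 higher with hairpin 2 and 5 lower, beside 20.6% and 21.8% of all genes (42.4%). Eph receptors passed in 6 of 8 tested with hairpin 1, with 2 higher and 4 lower, and in 8 of 8 with hairpin 2, with 3 higher and 5 lower. Of 10 plexins and neuropilins, 1 was higher and 5 lower with hairpin 1, and 5 were higher and 2 lower with hairpin 2. Of 16 semaphorins, 2 were higher and 6 lower with hairpin 1, and 3 higher and 3 lower with hairpin 2. The ephrins gave 2 higher and 1 lower of 7 with hairpin 1 and 1 higher with hairpin 2.

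EPHB2 gave the clearest split between the WiDr hairpins. It had 15.2, 17.8 and 15.7 CPM with hairpin 1 and 5.13, 5.09 and 5.31 CPM with hairpin 2, against 14.1, 14.5 and 14.3 CPM in controls. EPHB2 fell by 1.47 with hairpin 2 (SE 0.086, adjusted p = 2.13e-09) and had a log2 fold change of 0.18 with hairpin 1 (SE 0.077, adjusted p = 0.064). The difference between the hairpins was -1.65 (SE 0.086, adjusted p = 6.66e-10). EPHB6 had 12.3, 13.6 and 12.7 CPM with hairpin 1 and 8.11, 8.47 and 8.44 CPM with hairpin 2, against 19.9, 20.4 and 20.5 CPM in controls. It fell by 0.65 (SE 0.070, adjusted p = 1.76e-06) and by 1.28 (SE 0.073, adjusted p = 1.58e-09), the reverse of its rise in PANC-1. EPHB3 had 35.2, 37.6 and 38.1 CPM with hairpin 1 and 52.6, 49.9 and 52.1 CPM with hairpin 2, against 61.6, 63.5 and 60.5 CPM in controls, and fell by 0.74 (adjusted p = 3.09e-08) and by 0.27 (adjusted p = 0.000894). EPHA10 had 1.5, 1.22 and 1.53 CPM with hairpin 1 and 2.16, 1.74 and 1.49 CPM with hairpin 2, against 2.65, 2.62 and 2.32 CPM in controls, and fell by 0.83 (adjusted p = 0.00205) and by 0.49 (adjusted p = 0.0417). The EPHA10 call with hairpin 2 was lost under 9 alternatives, among them any one control library or hairpin 2 replicate 2 or 3 left out (adjusted p = 0.0524 to 0.136 over the 9). EPHB4 and EPHA1 rose with both hairpins, EPHB4 by 0.51 and 0.49 and EPHA1 by 0.48 and 0.26. In the fit of all 36 libraries the hairpin 2 calls of EPHA1 (adjusted p = 0.117) and EPHB3 (adjusted p = 0.0829) were lost. The ephrin EFNA3 had 1.39, 1.29 and 1.48 CPM with hairpin 1 and 1.54, 1.54 and 1.89 CPM with hairpin 2, against 2.20, 3.06 and 1.81 CPM in controls. EFNA3 fell by 0.77 with hairpin 1 (adjusted p = 0.00777), a call lost without control replicate 2 (log2 fold change -0.54, adjusted p = 0.0588), and its value with hairpin 2 was -0.52 (adjusted p = 0.0532).

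NRP2 had 1.5, 2.15 and 2.21 CPM with hairpin 1 and 3.89, 3.06 and 4.51 CPM with hairpin 2, against 5.38, 5.27 and 6.45 CPM in WiDr hairpin controls. NRP2 fell by 1.53 (SE 0.18, adjusted p = 3.72e-06) and by 0.60 (SE 0.16, adjusted p = 0.00781), the second call being lost without hairpin 2 replicate 2 (log2 fold change -0.44, adjusted p = 0.055). NRP1 went in opposite directions, with a log2 fold change of -0.49 with hairpin 1 and 0.18 with hairpin 2, and a difference between hairpins of 0.67 (adjusted p = 9.72e-08). The NRP1 call with hairpin 2 was lost without control replicate 2 (log2 fold change 0.14, adjusted p = 0.0572). In the fit of all 36 libraries that call (adjusted p = 0.362) and the hairpin 2 call of NRP2 (adjusted p = 0.0538) were lost. SEMA4F had 1.76, 1.16 and 1.30 CPM with hairpin 1 and 0.948, 1.17 and 1.13 CPM with hairpin 2, against 2.42, 2.54 and 2.45 CPM in controls. It fell by 0.82 (SE 0.20, adjusted p = 0.00275) and by 1.18 (SE 0.20, adjusted p = 0.000203). SEMA6B had 1.25, 0.611 and 0.853 CPM with hairpin 1 and 1.37, 0.944 and 0.837 CPM with hairpin 2, against 1.57, 2.13 and 1.75 CPM in controls. SEMA6B fell by 1.03 (adjusted p = 0.0051) and by 0.80 (adjusted p = 0.0211). Its hairpin 2 call was lost without control replicate 2 or hairpin 2 replicates 2 or 3 (log2 fold changes -0.71 to -0.67, adjusted p = 0.0857 to 0.102). SEMA4A, a transmembrane semaphorin with immune roles, rose by 0.61 with hairpin 2 (adjusted p = 0.00124) and had -0.09 with hairpin 1. Among plexins, PLXNB1, the receptor of SEMA4D, rose by 0.41 and 0.52, and PLXND1 fell by 0.37 and 0.43. PLXNB3 had -0.32 with hairpin 1 and 0.33 with hairpin 2, both past the threshold. In the fit of all 36 libraries the hairpin 1 calls of PLXND1 (adjusted p = 0.0814) and PLXNB3 (adjusted p = 0.0859) were lost. With hairpin 2 each was lost under 1 alternative (adjusted p = 0.05004 and 0.0713). Ribosomal RNA made up 1.27% to 2.56% of counts with hairpin 1 and 5.38% to 10.2% with hairpin 2, against 1.59% to 2.71% in controls, and its part was not tested beyond the fit without those genes.

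With guides in WiDr, 13 members were higher and 14 lower of 41 tested with guide 1, beside 21.4% of all genes higher and 20.3% lower (41.6% in either direction). With guide 2, 5 were higher and 14 lower, beside 14.1% and 11.3% (25.5%). The median log2 fold change was -0.03 with guide 1 (all genes 0.00) and -0.14 with guide 2 (all genes 0.02). Between the guides 18 members differed, 8 higher with guide 2 and 10 lower, beside 17.4% and 17.1% of all genes (34.4%). With the libraries grouped by the genotype field instead, guide 1 had 5 libraries and guide 2 had 1, assumed to vary like the other arms. By that grouping fewer members passed with each guide and between the guides, and the share of all genes passing fell as well. By the titles, the guide 2 count of members fell to 11 without control replicate 3 and also without guide 2 replicate 2. The share of all genes fell in both of these fits, to 16.4% without control replicate 3. By family, guide 1 gave 4 ephrins higher and 2 lower of 7, 3 Eph receptors higher and 2 lower of 8, 3 semaphorins higher and 7 lower of 16, and 3 plexins or neuropilins higher and 3 lower of 10. Guide 2 gave 2 ephrins higher, 1 Eph receptor higher and 3 lower, 2 semaphorins higher and 6 lower, and 5 plexins or neuropilins lower.

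NRP1 had 185, 175 and 173 CPM with guide 1 and 55.4, 51.9 and 51.2 CPM with guide 2, against 70.4, 69.3 and 70.9 CPM in guide controls. The 3 arms did not overlap, and guide 1 and guide 2 lay on opposite sides of the control. NRP1 rose by 1.34 with guide 1 (SE 0.051, adjusted p = 9.2e-12) and fell by 0.41 with guide 2 (SE 0.052, adjusted p = 2.94e-05), a difference of -1.75 between guide 2 and guide 1 (SE 0.052, adjusted p = 6.4e-13). Its guide 2 call was lost in the fit of all 36 libraries (log2 fold change -0.43, adjusted p = 0.0523). SEMA7A, a GPI-anchored semaphorin, had 6.80, 6.90 and 6.69 CPM with guide 1 and 2.83, 2.84 and 2.83 CPM with guide 2, against 4.37, 4.11 and 4.90 CPM in controls. Its log2 fold change was 0.61 (SE 0.11, adjusted p = 0.000213) and -0.65 (SE 0.12, adjusted p = 0.000674), a difference of -1.26 (adjusted p = 1.95e-07). By the genotype field, with 5 libraries of guide 1 and 1 of guide 2, NRP1 had 0.57 with guide 1 (adjusted p = 0.567). SEMA7A then had -0.0013 with guide 1 (adjusted p = 0.999) and 0.59 with guide 2. By the titles, NRP2 split likewise, at 0.34 (adjusted p = 0.0403) and -0.46 (adjusted p = 0.0183). The NRP2 call with guide 1 was lost under 8 alternatives, among them any one guide 1 library or control replicate 1 or 2 left out (adjusted p = 0.0507 to 0.328 over the 8). That with guide 2 was lost under 3, among them guide 2 replicate 2 or control replicate 3 left out (adjusted p = 0.0848 to 0.226 over the 3).

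Other members moved the same way with both guides by the titles. SEMA3A had 54.7, 53 and 54.8 CPM with guide 1 and 53.8, 51.5 and 45.3 CPM with guide 2, against 85.4, 88.4 and 84.4 CPM in WiDr guide controls, and fell by 0.67 (SE 0.060, adjusted p = 1.8e-07) and by 0.78 (SE 0.060, adjusted p = 1.06e-07). SEMA4F had 2.42, 2.13 and 2.08 CPM with guide 1 and 1.77, 2.23 and 2.21 CPM with guide 2, against 4.84, 3.92 and 4.73 CPM in controls, and fell by 1.03 (SE 0.15, adjusted p = 3.5e-05) and by 1.12 (SE 0.15, adjusted p = 6e-05). SEMA3G, a secreted semaphorin, had 0.408, 0.549 and 0.328 CPM with guide 1 and 0.649, 0.664 and 0.554 CPM with guide 2, against 1.11, 1.33 and 1.60 CPM in controls. SEMA3G fell by 1.62 (SE 0.27, adjusted p = 0.000159) and by 1.11 (SE 0.26, adjusted p = 0.00588). SEMA3E, the ligand of PLXND1, had 7.76, 8.18 and 7.29 CPM with guide 1 and 7.46, 6.49 and 5.13 CPM with guide 2, against 4.28, 4.81 and 4.70 CPM in controls. It rose by 0.75 (adjusted p = 0.000136) and 0.47 (adjusted p = 0.0131). The second call was lost without replicate 1 of guide 2 or of the control (adjusted p = 0.0593 and 0.059) and in the fit of all 36 libraries (adjusted p = 0.112). In these 4 semaphorins, named for their change in these same libraries, no guide library overlapped the controls. The receptor EPHB2 had 14.6, 14.3 and 14.1 CPM with guide 1 and 12.2, 12.7 and 14.3 CPM with guide 2, against 19.0, 19.4 and 21.4 CPM in controls, and fell by 0.48 (adjusted p = 0.000119) and by 0.61 (adjusted p = 3.75e-05). EPHB3 had 59.9, 51.7 and 52.4 CPM with guide 1 and 75.0, 64.0 and 76.9 CPM with guide 2, against 79.8, 83.1 and 95.3 CPM in controls, and fell by 0.66 (adjusted p = 2.39e-05) and by 0.26 (adjusted p = 0.0353). The EPHB3 call with guide 2 was lost without guide 2 replicate 2 or 3 or control replicate 2 or 3 (adjusted p = 0.0505 to 0.153). It was also lost in the fit of all 36 libraries (adjusted p = 0.12), as was the guide 2 call of EFNA1 (adjusted p = 0.0979). EFNA1, a GPI-anchored ligand of EPHA2, rose by 0.59 and 0.39, and SEMA4B rose by 0.58 with guide 1 and had 0.02 with guide 2. By the genotype field, where guide 2 is 1 library, some of the calls above were lost. Among them were SEMA4F (log2 fold change -1.11), SEMA3G (-2.02) and EPHB2 (-0.50) with guide 2. EPHB3 (-0.39) and SEMA4B (0.27) with guide 1 were lost as well. The 7 intestinal markers summed to 1050 to 1160 CPM with guide 1 and 895 to 908 CPM with guide 2, against 673 to 702 CPM in controls, and their part in these results was not tested.

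**Figure D4:**
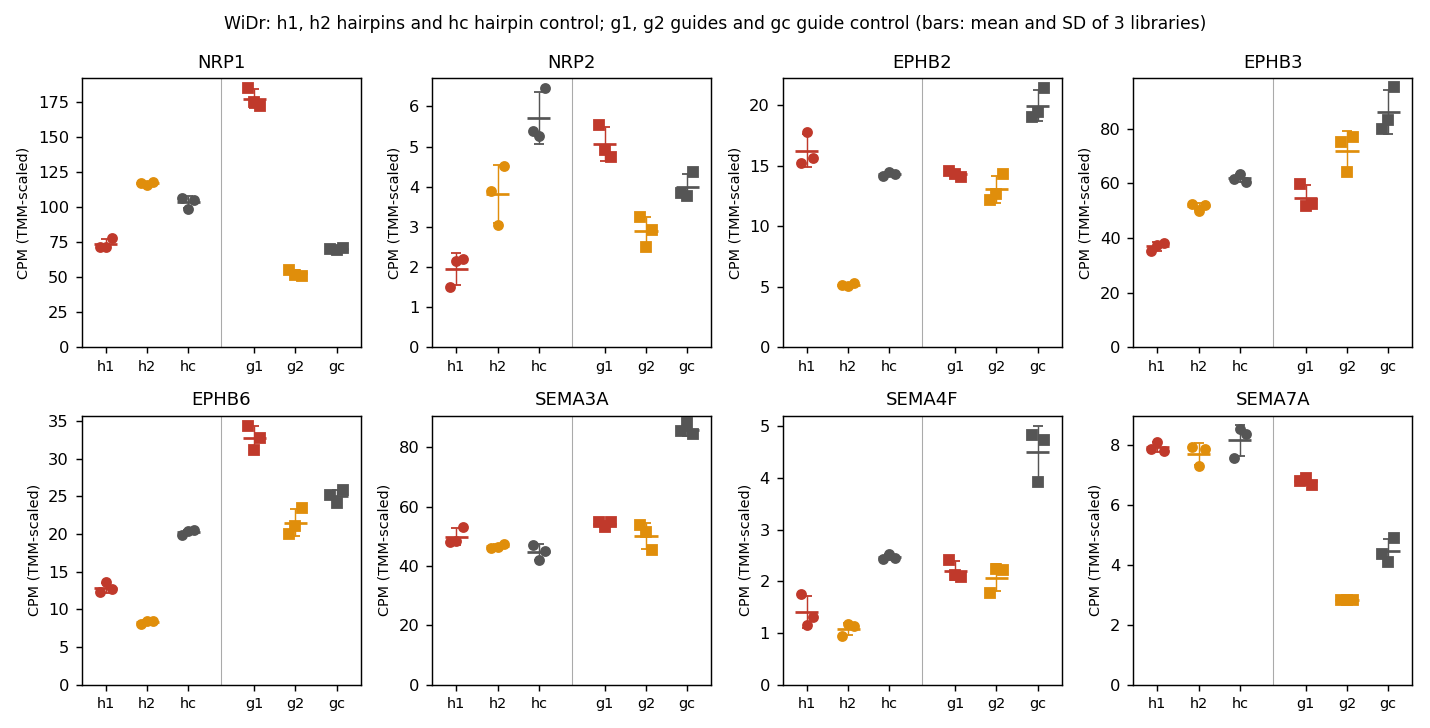
CPM of 8 guidance genes in WiDr on linear axes from 0; circles are hairpin libraries (h1 and h2, left of their control hc) and squares guide libraries (g1 and g2, left of their control gc), with means and the SD of 3 libraries. EPHB2 is low with hairpin 2 (5.09 to 5.31 CPM), and NRP1 is high with guide 1 (173 to 185 CPM) and below the control with guide 2.

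Differences of effect between experiments were tested directly, as the effect averaged over the 2 constructs of each. The PANC-1 effect exceeded the MDA-MB-468 effect in 15 members and lay below it in 5 of 50 tested, beside 11.7% and 12.1% of all genes. Against the WiDr hairpins it exceeded in 20 and lay below in 3 of 47, beside 20.9% and 16.2%, with a median difference of 0.62 where that of all genes was 0.06. NRP2 had the largest difference among the members, 5.84 (SE 0.40, adjusted p = 6e-08) against MDA-MB-468 and 5.05 (SE 0.34, adjusted p = 1.1e-08) against WiDr on the log2 scale. EPHB6 differed by 2.29 and 3.56, SEMA6B by 1.98 and 2.00, SEMA4F by 1.11 and 2.25, EFNA3 by 1.25 and 2.19, and SEMA3A by 1.41 and 1.49. SEMA3F had -1.21 and -0.82 and EFNB2 -1.16 and -0.98. The MDA-MB-468 effect exceeded the WiDr hairpin effect in 8 members and lay below it in 6 of 45, beside 9.27% and 8.96%. That count of 14 was 9 without MDA-MB-468 control replicate 3, 9 without WiDr control replicate 3 and 7 without WiDr control replicate 2. The share of all genes was then 14.8%, 13.7% and 13.7%. The guide effect exceeded the hairpin effect in WiDr in 13 members and lay below it in 10 of 41, beside 22% and 19.6%. In that last comparison EPHB6 differed by 1.05, and SEMA3A by -0.84, with hairpin log2 fold changes of 0.16 and 0.06.

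Partner genes of these pathways were counted as 3 lists, which overlap no member. In PANC-1, beside 30.2% of all genes called for hairpin 1 and 33.4% for the other arm, of 18 partners of Eph signalling 3 were higher and 3 lower with hairpin 1 and 4 higher and 2 lower in the libraries labelled hairpin 2. Of 20 tested semaphorin and plexin partners 6 were higher with hairpin 1, and 5 higher and 1 lower in the other arm. Of 18 other guidance ligands and receptors, 5 were higher and 2 lower with each arm. TIAM1, an exchange factor for Rac that acts downstream of ephrins, averaged 11.3 ± 1.82 CPM with hairpin 1 and 13.6 ± 0.737 CPM in the libraries labelled hairpin 2, against 1.01 ± 0.259 CPM in controls (SD, n = 3 each), log2 fold changes of 3.47 and 3.74. NGEF, an exchange factor bound by EphA receptors, rose by 1.33 and 1.42, the small GTPase RND2 by 1.24 and 1.49, MICAL1, an oxidase downstream of plexins, by 0.72 and 0.76, and CHN1, a Rac GTPase activator downstream of EphA4, fell by 0.71 and 0.74. Of the other guidance families, NTN4 (2.07 and 1.59), FLRT2 (2.34 and 1.80) and ROBO3 (0.67 and 0.73) rose. The netrin receptor UNC5B (-1.73 and -1.79) and the ligand SLIT1 (-1.51 and -1.49) fell.

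In MDA-MB-468 no partner of Eph (18 tested) or semaphorin signalling (14 tested) passed, beside 2.27% of all genes with hairpin 1 and 3.49% with hairpin 2, and UNC5B fell by 0.86 with both hairpins. In WiDr with hairpins, where 48.0% and 44.7% of all genes passed with hairpin 1 and hairpin 2, 5 Eph partners were higher and 6 lower of 16 with hairpin 1, and 7 higher and 4 lower with hairpin 2. Semaphorin partners gave 7 higher and 3 lower of 15, and 7 higher and 1 lower. CHN1 fell by 1.00 and 0.77 and ROBO3 by 0.71 and 0.76, and DPYSL3, a collapsin response mediator, rose by 0.87 and 1.31. With guides, beside 41.6% of all genes with guide 1 and 25.5% with guide 2, 3 Eph partners were higher and 3 lower of 16 with guide 1, and 2 higher and 4 lower with guide 2. Semaphorin partners gave 4 higher and 6 lower of 16, and 1 higher and 5 lower. DPYSL2, a mediator of the SEMA3A response, fell by 0.67 and 1.27, and GRIP1, which binds ephrin-B tails, by 0.59 and 1.09. ROBO1, a receptor of the SLIT ligands, fell by 1.47 and 2.09, and SLIT1 rose by 1.00 and 0.93. The other guidance ligands and receptors gave 2 lower of 13 in MDA-MB-468 with hairpin 1 and 1 lower with hairpin 2. In WiDr they gave 5 lower of 11 with hairpin 1, 3 higher and 1 lower with hairpin 2, and 4 higher and 3 lower of 12 with each guide.

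The controls carrying the non-silencing hairpin showed what each line expresses before any targeting. At least 1 CPM in at least 1 control library was reached by 38 members in MDA-MB-468, 37 in PANC-1 and 38 in WiDr, and by 29 in every line. Under 1 CPM in every control library were 8, namely EPHA3, EPHA5, EPHA6, EPHA8, EPHB1, PLXNA4, SEMA5A and SEMA6D, and all of these but PLXNA4 stayed under 1 CPM in all 36 libraries. Of 46 members tested, 23 were higher and 18 lower in MDA-MB-468 than in PANC-1, beside 34.7% and 34.8% of all genes (69.5% in either direction). Against WiDr, 18 were higher and 20 lower in MDA-MB-468, beside 36.9% and 34.9% (71.7%). In PANC-1 against WiDr, 15 were higher and 20 lower, beside 37.6% and 34.9% (72.6%). Line, culture and handling cannot be told apart in these comparisons.

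Levels per kilobase of the median coding transcript (CPM per kb, n = 3, with SD) were used to rank genes within a line. Among ephrins, EFNA1 led in MDA-MB-468 (33.9 ± 5.92) and PANC-1 (9.31 ± 2.02), followed in both by EFNA4 (19.8 ± 3.54 and 6.12 ± 0.687) and EFNB2 (7.32 ± 1.15 and 4.29 ± 0.86). In WiDr EFNB1, a ligand of EphB receptors, led with 104 ± 5.53, before EFNB2 (27.4 ± 0.49) and EFNA2 (18.5 ± 1.35). By library EFNA1 had 67.6, 47.7 and 56.1 CPM in MDA-MB-468 and 11.9, 16.7 and 18.5 CPM in PANC-1, and EFNA4 had 25.6, 17.9 and 21.7 CPM and 6.04, 7.52 and 6.55 CPM. EFNB2 had 28.5, 38.9 and 36.4 CPM in MDA-MB-468, 25.0, 17.8 and 18.1 CPM in PANC-1 and 132, 129 and 128 CPM in WiDr. EFNB1 had 17.3, 16.0 and 15.9 CPM in MDA-MB-468 and 13.1, 11.8 and 13.6 CPM in PANC-1, against 329, 364 and 338 CPM in WiDr. EFNA2 had 16.2, 17.6 and 18.8 CPM in WiDr. Among the leading ephrins of PANC-1 the per-length SDs of EFNA4 and EFNB2 kept them apart by more than either SD.

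Among Eph receptors, EPHA2, an ephrin-A receptor raised in many carcinomas, led per length in PANC-1 (76.8 ± 11.6 CPM per kb) and WiDr (89.7 ± 3.32), before EPHB4 (55.8 ± 5.94 and 79.4 ± 3.35). EPHB2 came next in PANC-1 (11.4 ± 1.22) and EPHB3 in WiDr (15 ± 0.362). In MDA-MB-468 EPHA4 (46.2 ± 13.6), EPHB6 (43.6 ± 1.82) and EPHB4 (34.2 ± 3.03) stood within the SD of EPHA4. With the longest transcript EPHA4 dropped to rank 6 (4.37 CPM per kb) and EPHB6 led with 37.0, so the place of EPHA4 rests on the length used. By library EPHA2 had 356, 268 and 289 CPM in PANC-1 and 343, 369 and 355 CPM in WiDr. EPHB4 had 118, 141 and 129 CPM in MDA-MB-468, 235, 191 and 208 CPM in PANC-1 and 289, 314 and 300 CPM in WiDr. EPHB6 had 145, 155 and 144 CPM in MDA-MB-468 and 0.256, 0.349 and 0.228 CPM in PANC-1, against 20.4, 20.9 and 21.0 CPM in WiDr. EPHA4 had 18.5, 33.7 and 31.1 CPM in MDA-MB-468, EPHB2 had 47.0, 38.3 and 40.6 CPM in PANC-1, and EPHB3 had 63.1, 65.0 and 62.0 CPM in WiDr. EPHA7 was found in 1 line, with 0 counts in all 3 MDA-MB-468 libraries, 20.3, 15 and 13.5 CPM in PANC-1, and 0 counts in all 3 WiDr libraries. Against a floor of 3 counts over the group, PANC-1 was at least 559-fold higher than MDA-MB-468 and at least 519-fold higher than WiDr. EPHA1 was the reverse, with 25.5, 27.5 and 25.5 CPM in MDA-MB-468, 0.0256, 0 and 0.0285 CPM in PANC-1 and 39.8, 43.9 and 42.2 CPM in WiDr.

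Among semaphorins, SEMA4B led per length in PANC-1 (966 ± 142 CPM per kb) and WiDr (447 ± 17.9), and SEMA3F in MDA-MB-468 (38.9 ± 0.811). SEMA4C (29.4 ± 1.44) and SEMA4B (23.1 ± 5.09) followed in MDA-MB-468. In PANC-1 SEMA3F (65.5 ± 7.53) and SEMA3C (59.5 ± 14.4), a secreted semaphorin, lay within their SDs. In WiDr SEMA3A (80.7 ± 4.58) and SEMA4G (35.8 ± 0.726) came next, but SEMA3A dropped to rank 7 with the longest transcript and SEMA3B (23.2 CPM per kb) came second. By the longest transcript SEMA3C (8.03) came second in MDA-MB-468, where SEMA4C (6.96) was at rank 3 and SEMA4B (4.59) at rank 6, and SEMA3C (43.7) also passed SEMA3F (29.2) in PANC-1. By library SEMA4B had 13.1, 20.2 and 19.2 CPM in MDA-MB-468, 856, 666 and 674 CPM in PANC-1 and 330, 354 and 331 CPM in WiDr. SEMA3F had 64.9, 67.4 and 65.3 CPM in MDA-MB-468 and 125, 99.6 and 108 CPM in PANC-1. SEMA4C had 23.7, 26.0 and 24.3 CPM in MDA-MB-468, SEMA3C had 289, 196 and 193 CPM in PANC-1, and SEMA3A had 48.2, 43.1 and 46.1 CPM in WiDr. SEMA4G had 0.570, 1.15 and 1.21 CPM in MDA-MB-468 and 6.73, 4.33 and 5.72 CPM in PANC-1, against 72.5, 73.9 and 70.9 CPM in WiDr. SEMA3D, a secreted semaphorin, again had 0 counts in MDA-MB-468, 6.86, 4.39 and 3.67 CPM in PANC-1 and 0 counts in WiDr. PANC-1 was at least 171-fold and at least 159-fold higher against that floor.

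Among the receptors of semaphorins, PLXNB2 led per length in MDA-MB-468 (351 ± 38.2 CPM per kb) and WiDr (237 ± 9.22), and PLXND1 in PANC-1 (367 ± 127), before PLXNB2 (157 ± 47.6). PLXND1 came next in MDA-MB-468 (65.9 ± 13.2) and WiDr (216 ± 2.86), and PLXNB3 (26.0 ± 2.96) in MDA-MB-468, while NRP1 came next in PANC-1 (62.7 ± 11.2) and WiDr (42.3 ± 1.77). By the longest transcript PLXNB2 (34.2) stood just before PLXND1 (32.0) in PANC-1, and PLXNA1 came second in MDA-MB-468 (12.9) and WiDr (22.1). PLXND1 then stood at rank 4 (5.75) and PLXNB3 at rank 7 (3.15) in MDA-MB-468, and in WiDr PLXND1 stood at rank 3 (18.9) and NRP1 at rank 4 (18.1). By library PLXNB2 had 437, 542 and 480 CPM in MDA-MB-468, 293, 169 and 192 CPM in PANC-1 and 318, 343 and 325 CPM in WiDr. PLXND1 had 31.9, 48.0 and 42.5 CPM in MDA-MB-468, 317, 174 and 190 CPM in PANC-1 and 132, 136 and 133 CPM in WiDr. PLXNB3 had 18, 22.6 and 19.7 CPM in MDA-MB-468. NRP1 had 15.7, 29.5 and 27.2 CPM in MDA-MB-468, 190, 141 and 141 CPM in PANC-1 and 110, 101 and 108 CPM in WiDr. NRP2 had 2.56, 3.78 and 3.29 CPM in MDA-MB-468, 0.384, 0.261 and 0.342 CPM in PANC-1 and 5.51, 5.40 and 6.60 CPM in WiDr, so NRP2 was lowest in PANC-1. PLXNA2 had 19.7, 46.6 and 34.5 CPM in MDA-MB-468, 0.230, 0.0581 and 0.142 CPM in PANC-1 and 71.6, 71.0 and 74.7 CPM in WiDr.

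**Figure D5:**
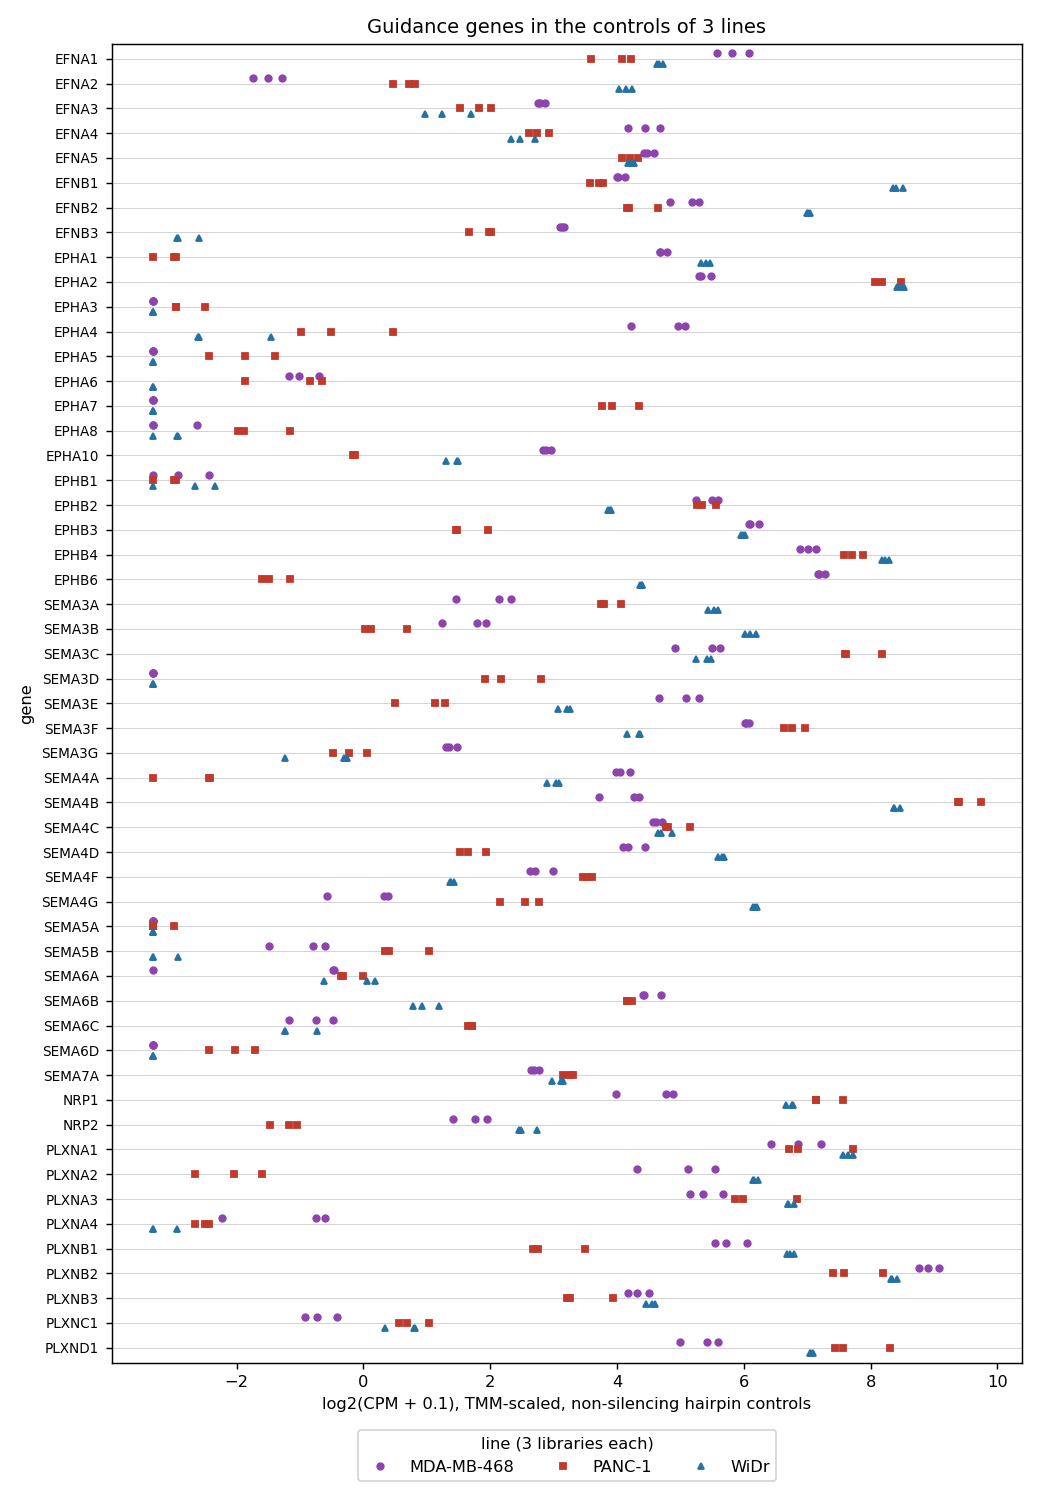
Level of each of the 53 guidance genes (rows) in the non-silencing hairpin controls, as log2(CPM + 0.1) on the horizontal axis, with 3 libraries each for MDA-MB-468 (circles), PANC-1 (squares) and WiDr (triangles). EPHA7 and SEMA3D lie at the left edge, at 0 counts, in MDA-MB-468 and WiDr, and EPHB6 and SEMA4A are lowest in PANC-1.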

How the data were processed

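Expected counts per gene of 36 libraries were deposited by the authors. Per the submitters' processing notes, Bowtie2 2.1.0, RSEM 1.2.15 and hg38 were used. Annotation and strand setting: not given in the sources used here. RSEM spreads reads that fit several genes, so near-identical paralogs are uncertain. Counts were rounded to whole numbers. Low genes were filtered by arm with filterByExpr, counts were scaled by TMM, and each experiment was fitted with the robust quasi-likelihood F test of edgeR 4.0.16 (R 4.3.3). The p-values were adjusted by Benjamini-Hochberg over all genes tested, with a threshold of 0.05. The script was tested on simulated data. A log2 fold change is construct over control. Dividing its size by the root of the F statistic gave its SE. Differences between experiments were interaction terms over both, and the 3 control lines were fitted together. DESeq2 1.42.0 and other alternatives are in the closing section. GENCODE 29 gave lengths and overlaps. Total counts per library, given with the results, set the precision; 2349 genes had no count.

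Members and lists were chosen with earlier results of these data known. Members passing with either construct at 1 CPM or more in the higher arm and a log2 fold change of at least 0.58 are named, with 8 per experiment by library. Separation of the arms in members so named follows in part from that choice and is no added support. Interactions of at least 1 are named, as are the 3 leading members per family and line, and list genes passing at 1.5-fold or more with both constructs. The targeted gene itself is not reported here. Counts of replicates differed beyond sampling noise (chi-square per degree of freedom 3.39 to 177).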

Additional observations from a re-analysis of the deposited data

Results flagged for a closer look

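The results below are differences of effect between experiments of at least 1 on the log2 scale that passed the interaction test of edgeR (adjusted p under 0.05). Each is the mean effect of both constructs in the first experiment minus that in the second.

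In PANC-1 against MDA-MB-468, NRP2 differed by 5.84, SEMA4A by 2.43, EPHB6 by 2.29, SEMA6B by 1.98, SEMA3B by 1.74, SEMA3A by 1.41, SEMA4G by 1.36, EFNA3 by 1.25 and SEMA4F by 1.11. EPHA4 differed by -2.19, SEMA5B by -1.61, SEMA3F by -1.21 and EFNB2 by -1.16. The call of SEMA5B was lost in 7 fits with a library left out and with the replicate block (-1.62, adjusted p = 0.076).

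In PANC-1 against WiDr hairpins, NRP2 differed by 5.05, EPHB6 by 3.56, SEMA4F by 2.25, EFNA3 by 2.19, SEMA6B by 2.00, SEMA4A by 2.00, EPHA10 by 1.59, SEMA3A by 1.49, SEMA6C by 1.34, EPHB2 by 1.25, SEMA3B by 1.23, SEMA4G by 1.18 and PLXND1 by 1.04. EPHA4 differed by -2.96. For EPHB2 the WiDr hairpins disagreed, as it fell with hairpin 2 and did not pass with hairpin 1. SEMA4A was under 1 CPM in every PANC-1 library, and EPHA4 was under 1 CPM in every PANC-1 hairpin library and in every WiDr library.

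In MDA-MB-468 against WiDr hairpins, SEMA3G differed by 1.39, EPHB6 by 1.19 and SEMA4F by 1.07. The call of SEMA3G was lost without WiDr control replicate 2 (1.22, adjusted p = 0.0504). Between WiDr guides and WiDr hairpins, EPHB6 differed by 1.05.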

How the results depend on the processing

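The main fits assumed no pairing by replicate number. Correlations of deviations for the same number were -0.23 to 0.65 in MDA-MB-468, -0.70 to 0.13 in PANC-1, -0.17 to 0.10 in WiDr with hairpins and -0.078 to 0.14 with guides. For different numbers they were -0.65 to 0.58, -0.37 to 0.53, -0.14 to 0.15 and -0.14 to 0.099, so the ranges overlapped. With guides, every same-number correlation that involved guide 2 was positive (0.068 to 0.14), so pairing there was not settled. With the replicate block, members called in these 4 experiments were 3 and 3, 17 and 17, 21 and 19, and 28 and 22. The shares of all genes were 1.63% and 2.71%, 19.5% and 21.5%, 44.9% and 41.1%, and 45.7% and 31.0%. A replicate block within each control line leaves no residual degrees of freedom. A replicate block by number across the 3 lines, chosen after seeing the data, gave 39 members for MDA-MB-468 against PANC-1, 36 against WiDr and 34 for PANC-1 against WiDr. The shares of all genes were then 63.2%, 65.9% and 66.9%.

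Of 142 member calls of constructs against controls, 61 were lost under at least 1 alternative other than the genotype field. The calls of members named by the rules on size numbered 95, with differences of effect between experiments among them. None of these was lost with DESeq2, DESeq2 size factors, no filter or ribosomal RNA genes left out. The replicate block lost 3 of 95, the fit of all 36 libraries 2 of 64, the fit of each construct alone 3 of 64, and leaving out a library 37 of 1134. The 64 are calls of constructs against controls only. DESeq2 called 7 members for MDA-MB-468 hairpin 1, 8 for hairpin 2, 1 between those hairpins and 1 between the PANC-1 arms. The shares of all genes were 4.21%, 6.42%, 2.06% and 1.25%. The fit of all 36 libraries called 8 and 10 for MDA-MB-468 hairpins 1 and 2, 11 for WiDr hairpin 2 and 6 for guide 2. The shares of all genes were 5.24%, 7.38%, 23.1% and 7.34%. MDA-MB-468 hairpin 2 alone gave 1, beside 0.881%. By the genotype field (5 libraries of guide 1 and 1 of guide 2), guide 1 gave 8, guide 2 gave 1, the guides against each other 0 and guides against hairpins 12, and SEMA7A reversed to -0.0013 with guide 1 and 0.59 with guide 2; the cause was not tested.

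With 1 library left out, members called were 1 to 4 for MDA-MB-468 hairpin 1, 1 to 6 for hairpin 2 and 0 to 0 between them, 18 to 30 and 16 to 27 in PANC-1 and 0 to 0 between its arms, 18 to 27 and 17 to 25 for WiDr hairpins and 16 to 20 between them, and 24 to 27 and 11 to 20 for guides and 16 to 21 between them. The control lines gave 40 to 42, 36 to 39 and 34 to 38, and the differences of effect 18 to 26, 21 to 27, 7 to 16 and 16 to 22. The MDA-MB-468 hairpin 1 count was 1 or 2 without control replicate 3 or any hairpin 1 library, and that of hairpin 2 without control replicates 2 or 3 or any hairpin 2 library. The share of all genes was then 0.573% to 0.776% for hairpin 1 and 1.13% to 2.36% for hairpin 2. Members under 1 CPM were limited by depth.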
